A study of Homo sapiens with 6 samples.

Results

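Cells make cholesterol from acetyl-CoA through the mevalonate pathway, which builds isoprenoid units, joins them to squalene and folds squalene into sterols. Fatty acid synthesis starts from the same acetyl-CoA. Both programs are set by the SREBP transcription factors, which SCAP carries out of the endoplasmic reticulum when sterols are low and which the INSIG proteins hold back when sterols are high. In podocytes, the cells that wrap the capillaries of the kidney filter, the lipid content of the membrane is known to matter for the slit diaphragm, where several proteins sit in cholesterol-rich domains.

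The data cover 30 listed genes of these programs, of which 29 had a row among the 20745 genes of the authors' table, while CYP51A1 had none and was not analysed here. The list was chosen by pathway with the results of the authors' levamisole comparison on these samples already known, and members were found by gene name. The study compared 3 control cultures of AB 8/13 cells with 3 cultures given 1 µM levamisole for 24 h. The sample titles put the controls in serum-free medium for 24 h, whereas by the methods the vehicle cultures had complete medium. The levamisole titles name no medium, so a difference in medium between the groups cannot be told from them. AB 8/13 is 1 human podocyte line with a conditional immortalizing gene, grown at 33 °C and differentiated at 37 °C in both groups, and the 3 replicates of a group were taken from different passages.

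The table pools the libraries. For each gene it holds the base mean, which is the mean over the authors' libraries of the read count after scaling for library size, together with the columns of the authors' comparison of levamisole with control. Those columns hold the study's own result and were not used, so nothing below is a change with levamisole. The base mean has no value per culture, and its error, its n and the depth of each library are unknown. Levels are therefore descriptions without a test, and differences between neighbours in an order of levels cannot be judged against a spread. The number of libraries behind the mean is not stated in the table. Genes with the same few reads in the same libraries would share a base mean. No 2 of the 3744 genes with a base mean under 1 shared the same value. Whether libraries beyond the 6 entered the mean was not tested, so the levels below cannot be assigned to the 6 cultures alone.

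Podocyte markers varied widely in level. Those with a row numbered 10, and 8 of them had a base mean of at least 5. The cytoskeletal markers ACTN4 (base mean 14320) and CD2AP (base mean 929) were abundant, but both are expressed by many cell types. KIRREL1, a nephrin-like protein of the slit diaphragm, was at 253, above 84.5% of all genes. SYNPO (22.8), PLA2R1 (21.8) and NES (18.1) lay near the table's median. The transcription factor WT1 was at 6.21, the sialomucin PODXL at 15.3 and the receptor phosphatase PTPRO at 0.333, and NPHS1, which encodes nephrin of the slit diaphragm, had no row in the table used here. None of the 3 tubule, 2 endothelial or 2 leukocyte markers with a row reached a base mean of 5. Among the mesangial and smooth muscle markers ACTA2 was at 1021 and PDGFRB at 4.14.

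Expression of the pathway genes mostly lay above the median of all genes in the table, but less so among better detected genes. SQLE, the member at the median, was above 72.2% of all genes and above 52.0% of those at a base mean of 10 or more. Base means ran from 7.98 for MVD to 2473 for FADS1, with a median of 109 beside 21.8 over all genes and 66.2 over the 14455 protein coding genes. All 29 members had a base mean of at least 5, which 64.3% of all genes and 81.9% of the protein coding genes reached. A base mean of at least 50 was found for 24 members, or 82.8%, beside 39.9% of all genes and 55.5% of the protein coding genes. The top 25% of the table, above a base mean of 131, held 13 members, or 44.8%, beside 35.3% of the protein coding genes. All members are protein coding. Against the median of protein coding genes, 22 members were higher and 7 were lower. The members together took 0.128% of the summed base means, and FADS1 alone held 30.6% of that amount. The 22 mitochondrially encoded genes took 34.8% of the sum.

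**Figure D1:**
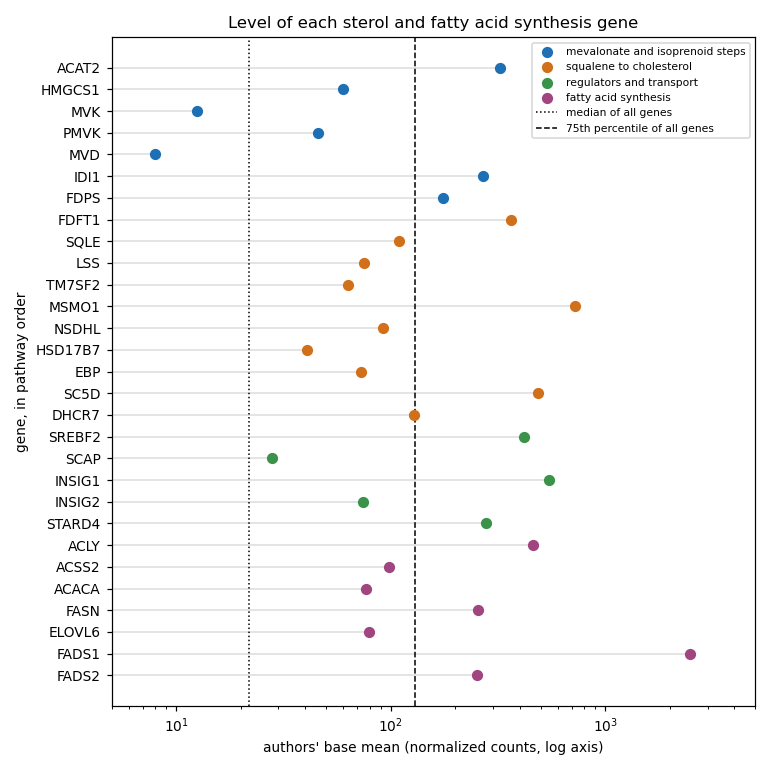
Base mean of each gene (normalized counts, log axis), in pathway order from top to bottom and coloured by role, with 1 point per gene and no error because the table has no value per culture. FADS1 at 2473 and MSMO1 at 725 lie farthest to the right, and MVK and MVD are the only members left of the median of all genes.

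**Figure D2:**
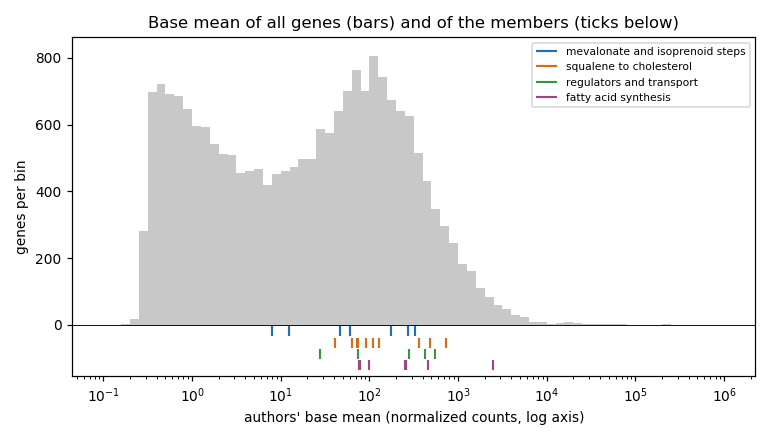
Number of genes per bin of base mean (log axis) for all 20745 genes, with a tick below the axis for each of the 29 members in the colour of its role. All members lie to the right of the low peak of the distribution, from 7.98 upward.

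Libraries followed a version of CEL-seq, where the cDNA starts from the poly(A) tail, so that a transcript gives a read near its 3′ end whatever its length. Over the 11838 protein coding genes at a base mean of 5 or more, base mean and transcript length were nearly unrelated across genes (Spearman's rho = 0.0171). Division by length would here lower long genes and raise short ones. Both scales are given, since member transcripts ran from 1002 to 10013 bases. By base mean per kb of transcript, the members' median was 48.7 beside 8.45 for all genes and 18.1 for the protein coding genes. On this scale 16 of the 29 members were in the top 25% of the table. The share of protein coding genes there was not computed.

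The mevalonate and isoprenoid steps differed widely in level. ACAT2, which joins 2 acetyl-CoA molecules in the cytosol, had a base mean of 324, above 87.7% of all genes. HMGCS1, which makes HMG-CoA, was lower at 59.9. The kinases MVK and PMVK, which phosphorylate mevalonate in turn, were at 12.5 and 46.1. MVD, which removes the carboxyl group to give isopentenyl diphosphate, was the lowest member at 7.98. MVK and MVD were the 2 members below the table's median, with 44.3% and 40.03% of genes lower than them. Levels were higher again at the following steps, with 271 for the isomerase IDI1 and 175 for FDPS, which makes farnesyl diphosphate. Per kb of transcript, MVK (4.42) and MVD (4.43) were the lowest pair as well.

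The enzymes from squalene to cholesterol had a median base mean of 101 over 10 genes, and none fell below the table's median. FDFT1, the squalene synthase, was at 366, and SQLE, which oxidizes squalene in a rate-limiting step, at 109. LSS, which closes the sterol rings, was at 74.7, and TM7SF2, a sterol reductase, at 63.2. The demethylation of the sterol ring needs MSMO1, NSDHL and HSD17B7 in a complex, and these partners were at 725, 92.1 and 40.8. MSMO1, the sterol methyl oxidase, was thus 17.8 times the base mean of HSD17B7, and 12.2 times per kb, with the limit on counting HSD17B7 given with the transcript ends. Of the last enzymes, the isomerase EBP was at 73.1, the desaturase SC5D at 485 and the reductase DHCR7 at 128.

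Among the regulators, INSIG1 had the highest base mean at 546, above 92.7% of all genes. SREBF2, which encodes the SREBP that drives sterol synthesis, was at 419. SCAP, the escort that moves it, was at 27.8, so that SREBF2 exceeded SCAP 15.1 times by base mean and 12.2 times per kb. The paralogs INSIG1 and INSIG2, both of which retain SCAP in the endoplasmic reticulum, differed 7.35 times by base mean and 9.0 times per kb. INSIG2, the paralog that is known to respond less to SREBP, was at 74.4. STARD4, a carrier of cholesterol between membranes, was at 279.

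In the fatty acid branch, all 7 genes had a base mean above 76. ACLY, which splits citrate into cytosolic acetyl-CoA, was at 459, and ACSS2, which makes it from acetate, at 98.5. ACACA, the carboxylase of the first committed step, was at 76.9, and the synthase FASN at 255. ELOVL6, which lengthens saturated chains, was at 79.3. The desaturases of polyunsaturated fatty acids, FADS1 and FADS2, were at 2473 and 251. FADS1 ranked 228 of 20745 genes, 3.41 times above the next member, MSMO1, by base mean and 1.74 times per kb. FADS1 exceeded FADS2 9.84 times by base mean and 6.97 times per kb. The pair lies on chromosome 11 of GRCh38 on opposite strands, FADS1 from 61799627 to 61829318 and FADS2 from 61792980 to 61867354, and the RefSeq starts in the promoter table are 599 and 800 bases apart.

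The order of levels was partly kept between scales. Ranks by base mean and by base mean per kb had a Spearman's rho of 0.846 over the 29 genes, which are not independent replicates. FADS1 and MSMO1 were first and second on both. With length taken into account, 8 members moved by more than 5 places. ACACA, the longest at 10013 bases, went from place 19 to 26 and FASN from 11 to 20, while EBP went from 22 to 12 and PMVK, the shortest at 1002 bases, from 25 to 16.

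**Figure D3:**
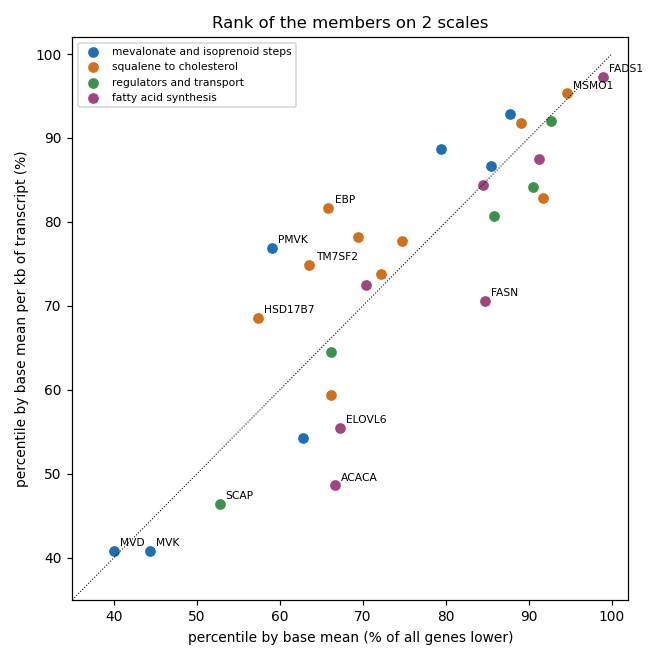
Percentile of each member among all genes by base mean (horizontal) and by base mean per kb of transcript (vertical), coloured by role, with the line of equality dotted. FADS1, MSMO1, MVK and MVD lie near the line, the long genes ACACA and FASN below it and the short genes EBP and PMVK above it.

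Some of these levels rest on transcript ends that are hard to count. The last 500 exonic bases of each member's canonical GENCODE transcript were cut into 60-base words, the length of the sequenced read, and searched in the genome. For 25 members no word had an exact second match. The words that cross a splice junction, 148 in FDPS and 98 or fewer in TM7SF2, SCAP, ACAT2 and EBP, had no exact match elsewhere in the genome. HSD17B7 (chromosome 1, 162790702 to 162812823, plus strand) was the exception, with 42.9% of its words present elsewhere, so that many of its reads would map to several places and HTSeq leaves such reads uncounted. Shares were 8.62% for SC5D, 5.22% for FDPS and 2.04% for FASN. A neighbouring gene of the same strand had exons over 3.40% of these bases in EBP and none in the other members. On the opposite strand, other genes covered 90.8% in ACAT2 (by TCP1), 89.6% in LSS, 76.6% in FDPS and 73.8% in HMGCS1. HTSeq's default setting counts by strand, and the part of opposite-strand reads in these levels was not tested.

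A further question is what the members share in sequence. SREBPs bind short sterol elements and act together with NF-Y, which binds the CCAAT box, and with Sp1, which binds GC boxes. RefSeq promoter windows of GRCh38.p14, from 250 bases before to 50 bases after an annotated start, were found by symbol for 25 members (36 windows), while SQLE, FDFT1, FASN and ACAT2 had none. A gene was counted when any of its windows held the motif on either strand. The windows of 4 members are shown for their motifs. SREBF2 was the 1 member with an exact match to the sterol element string searched. The others were picked after their matches were seen: INSIG1 for its E-box-type site, MSMO1 and FDPS for several CCAAT boxes. Capitals mark TCACNCCAC (sterol element), TCACNTGA (E-box-type) and CCAAT, each on either strand, so that ATTGG is a CCAAT box on the other strand.
SREBF2 (plus strand, chr22:41832855-41833154): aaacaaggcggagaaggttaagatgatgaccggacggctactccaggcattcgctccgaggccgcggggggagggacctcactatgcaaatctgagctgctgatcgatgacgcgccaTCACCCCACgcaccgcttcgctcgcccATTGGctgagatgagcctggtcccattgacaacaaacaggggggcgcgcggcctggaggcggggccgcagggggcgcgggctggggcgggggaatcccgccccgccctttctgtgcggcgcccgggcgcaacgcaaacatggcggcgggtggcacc
INSIG1 (plus strand, chr7:155297628-155297927): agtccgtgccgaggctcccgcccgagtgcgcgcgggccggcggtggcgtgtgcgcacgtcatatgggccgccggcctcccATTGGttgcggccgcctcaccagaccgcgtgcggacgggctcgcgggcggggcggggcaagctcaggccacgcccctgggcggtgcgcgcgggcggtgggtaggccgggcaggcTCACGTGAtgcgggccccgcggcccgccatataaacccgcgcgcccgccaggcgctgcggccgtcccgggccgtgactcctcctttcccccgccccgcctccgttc
MSMO1 (plus strand, chr4:165327419-165327718): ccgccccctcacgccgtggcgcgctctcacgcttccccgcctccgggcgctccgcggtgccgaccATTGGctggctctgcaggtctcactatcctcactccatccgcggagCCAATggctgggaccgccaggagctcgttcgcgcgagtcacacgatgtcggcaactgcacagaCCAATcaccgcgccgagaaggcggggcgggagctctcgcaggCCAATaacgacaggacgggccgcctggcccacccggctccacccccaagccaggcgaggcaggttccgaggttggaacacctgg
FDPS (plus strand, chr1:155308616-155308915): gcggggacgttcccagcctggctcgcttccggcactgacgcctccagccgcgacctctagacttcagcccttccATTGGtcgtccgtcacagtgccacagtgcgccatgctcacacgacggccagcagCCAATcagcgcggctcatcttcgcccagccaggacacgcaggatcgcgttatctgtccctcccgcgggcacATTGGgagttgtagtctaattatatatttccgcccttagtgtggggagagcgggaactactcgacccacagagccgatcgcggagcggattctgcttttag

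The CCAAT box, among the motifs searched, had the widest gap in percentage points between members and all genes. It was present in 20 of the 25 members, or 80.0%, beside 42.4% of the 12212 table genes with a window and 43.6% of the 9516 protein coding ones at a base mean of 5 or more. At least 2 boxes in 1 window were found for 13 members, or 52.0%, beside 15.4% of all genes. At least 3 were found for 7 members, or 28%, beside 5.21%. MVK and NSDHL had 5 each and MSMO1 had 4. Overlapping matches on opposite strands were counted separately, in members and all genes alike. Such a pair lay 113 and 110 bases before the start in NSDHL, and 132 and 129 bases before it in IDI1. IDI1 reached 3 boxes only with both of its pair counted. MVK was second lowest of the members by base mean, and FADS1, the highest, had no box. The other members without a match were ELOVL6, INSIG2, PMVK and SCAP. By role, a CCAAT box was found in 8 of 8 genes from squalene to cholesterol, 5 of 6 of the mevalonate steps, 4 of 6 of the fatty acid branch and 3 of 5 regulators. Members had more than 1 window in 36% of cases and all genes in 28%. With only the most upstream window of each gene, the shares were 64.0% and 36.2%.

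In the windows shown, MSMO1 carried its boxes at 185, 139, 76 and 34 bases before the start, and FDPS at 176, 122 and 51. Over all member windows, 49 of 51 matches lay before the start, at a median of 120 bases. A box that falls in 2 overlapping windows counts in each, and overlapping matches on opposite strands both count. The sterol element was found in 4.0% of members and 1.46% of all genes, which is the 1 match of SREBF2, 133 bases before its start and followed by a CCAAT box at 106. The E-box-type motif was found in 8.0% of members, INSIG1 and EBP, and in 5.25% of all genes. In INSIG1 it lay 56 bases before the start. GC boxes (GGGCGG) were found in 96.0% of members and 73.4% of all genes, and NSDHL was the member without one. The motifs are fixed letter strings, and matches are not binding sites. Variants of the strings were not searched, so a member without a match may still hold a sterol element of another sequence.

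**Figure D4:**
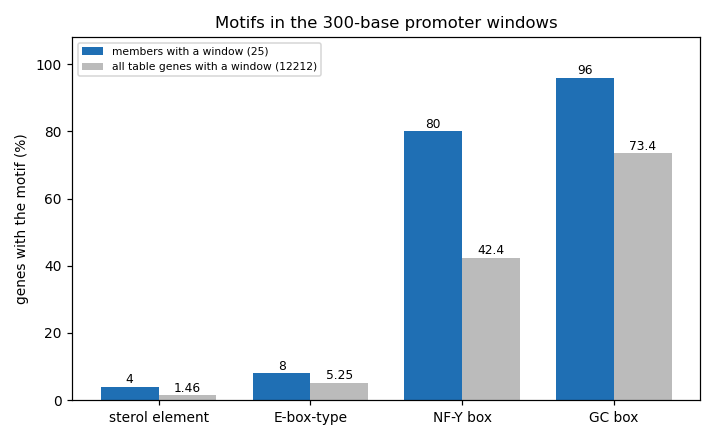
Share of genes with each motif (%) in the 300-base promoter windows, for 25 members (blue) and all 12212 table genes with a window (grey). The NF-Y box, the motif CCAAT, stands at 80.0% against 42.4%, while the sterol element and the E-box-type motif are rare in both.

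**Figure D5:**
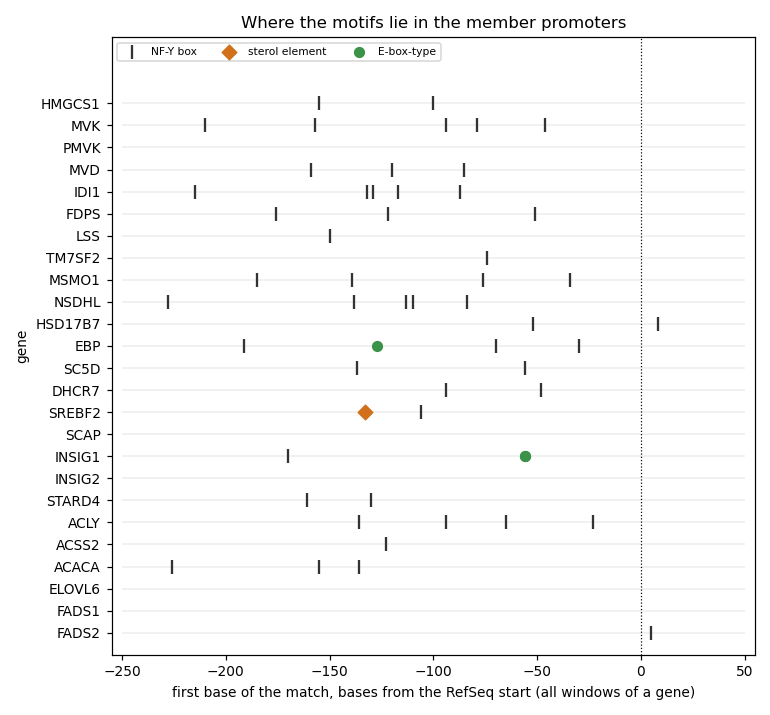
Position of the matches in bases from the annotated start (0, dotted) for the 25 members with a window, in pathway order, with NF-Y boxes as bars, the sterol element as a diamond and E-box-type motifs as circles. Nearly all bars lie left of the start, in rows of up to 5, and PMVK, SCAP, INSIG2, ELOVL6 and FADS1 have no mark.

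Other genes of the same pathways were set beside the members from a list of further enzymes, regulators and transporters. Of these, 33 had a row, with a median base mean of 214, and 24 of them, or 72.7%, were in the top 25% of the table, a larger share than the 44.8% of the members, although the difference was not tested. TMEM97, which binds the cholesterol transporter NPC1, was highest at 1309, followed by the lysosomal cholesterol carrier NPC2 at 993 and ACSL4, which activates polyunsaturated fatty acids, at 681. The lowest were MLXIPL, a carbohydrate-responsive factor, at 1.32, THRSP, a lipogenic protein of liver and fat, at 1.37 and ACACB, the carboxylase of the mitochondrial surface, at 2.02. ACACA thus stood far above ACACB, its paralog. The members lie on 17 chromosomes, with 5 of them on chromosome 11.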

How the data were processed

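Bulk RNA of cultured AB 8/13 podocytes was sequenced from the 3′ end after CEL-seq style barcoding. The methods describe 2 pipelines, 1 with BWA MEM and RPM values, which was not used here, and the one behind this table. In the latter the authors trimmed reads with Trim Galore 0.4.5, mapped them with STAR 2.7.5a to GRCh38 (Ensembl 95), counted them with HTSeq 0.11.0 under default parameters and fitted DESeq2 1.22.0 in R 3.5.3, which the labels' processing notes also list. The stated cutoff of 5 reads per sample and gene is not visible in the table, whose lowest base mean is 0.194. The deposited base mean is a signal, the authors' mean of counts divided by size factors over the libraries of their fit. The deposited log2 fold change, its standard error, the statistic and both p-values hold the authors' comparison and were neither used nor printed. With 1 mean per gene and no values per library, the planned test of levamisole against control was not run, and depth and precision per sample are unknown.

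Percentiles, shares and ratios of base means were computed in Python 3.11.15 with pandas 2.3.3, scipy 1.17.1 and numpy 2.4.6, and figures drawn with matplotlib 3.10.9. A percentile is the percent of table genes with a lower value. Lengths, positions and transcript ends come from canonical GENCODE 44 transcripts on GRCh38, matched by identifier for 20599 of 20745 genes. Word and motif searches were tested on simulated data with planted matches. Promoter windows come from RefSeq (GRCh38.p14). Members and lists were chosen with earlier results of these data known. All members were to be named, other pathway genes by the 3 highest and 3 lowest, and windows with TCACNCCAC were to be printed. The planned protein sequences of INSIG1 and INSIG2 are not printed here. The study's imaging and protein experiments were not analysed here.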

Additional observations from a re-analysis of the deposited data

How the results depend on the processing

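No paired analysis was possible because only a mean over all libraries was given. The treatment test with its alternatives, a second normalization and left-out replicates were likewise not run. The count of 13 of the 29 members in the top 25% was 12 and 9 when ranked against genes at a base mean of 5 or more and 10 or more. Per kb of transcript it was 16. Each such cut holds about 25% of its own reference genes, so the excess of members shrank as weakly detected genes were left out. The count of 24 members at a base mean of 50 or more was 28 at 10 and 15 at 100. These were 96.6% and 51.7% of the members, beside 57.8% and 29.4% of all genes. Of the protein coding genes, 76.7% and 41.3% reached these levels. Leaving out mitochondrially encoded genes raised the members' share of the sum from 0.128% to 0.196%, while leaving out genes with a base mean under 5 left it at 0.128%. Counting the E-box-type motif raised the 1 member with a sterol-type motif to 3, and the 200 bases before the start gave 1. The share of all genes rose from 1.46% to 6.64% with the E-box-type motif and was 0.966% in the 200 bases. For the CCAAT box, the 200 bases gave 19 members and the most upstream window 16, beside 20. Both of these settings were chosen after seeing the data. The share of all genes with a box fell as well, from 42.4% to 36.4% and 36.2%. Per kb, 14 members had a higher and 15 a lower percentile, by at most 17.8 and 18.1 points.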
